A study of Sus scrofa with 16 samples.

Results

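The ovaries of high-fecundity Large White sows were compared between the follicular phase (FH, day 20 of the estrous cycle) and the luteal phase (LH, day 14), with 4 sows in each group and 1 RNA library per sow. All animals were Canadian Large White sows of similar parity. The high-fecundity sows had been chosen by the number of piglets born, and each sow gave tissue at 1 time only, so that FH and LH are different animals. Of 27370 transcripts in the deposited table, 7129 reached 0.5 FPKM in 4 or more of these 8 libraries and form the set described here. FPKM is the number of sequenced fragments, scaled to the length of the transcript and to the fragments counted in the library. The sows with low fecundity (FL, day 20, and LL, day 14, 4 libraries each) were used only to set the same phase difference beside it in other animals.

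The luteal ovary holds corpora lutea, glands that form from ovulated follicles and take up or make cholesterol to produce progesterone. In the pig the corpora lutea regress before the next estrus, and a new cohort of follicles then grows, in which theca cells make androgens and granulosa cells turn these into estrogens. Both structures are rich in vessels and are surrounded by stroma, with macrophages and other immune cells present throughout the cycle. The comparison of FH with LH asks which transcripts of the whole ovary differ between these states. In bulk tissue, fewer cells of a type and less RNA per cell cannot be told apart.

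Ovarian marker genes were listed at low values in both groups. Names could be paired with 1802 of the transcripts tested (1778 genes), and many markers could not be linked to any transcript: 5 of 15 granulosa markers, 1 of 6 theca markers, 4 of 9 luteal markers and 4 of 14 oocyte markers were linked. FOXL2, a transcription factor that defines granulosa cells, was listed at up to 6.9 FPKM in FH and up to 19.4 in LH. SCARB1, which imports cholesterol into luteal cells, did not exceed 3.92 FPKM in any library. The endothelial markers TIE1 and CLDN5 were at 0 in all 8 libraries, whereas EGFL7, a protein secreted by endothelial cells, was listed between 47.6 and 933 FPKM.

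Some levels in the table ran against the known abundance of genes, and a level is here the value listed for a transcript. COL3A1, a main collagen of soft tissue, was listed at 0 to 12.5 FPKM, and RPL3, a ribosomal protein, at 0 to 9.51 FPKM. FTL, the ferritin light chain, did not exceed 32.2 FPKM in these 8 libraries, while GYS1, glycogen synthase of muscle, which is the next gene in the Sscrofa11.1 order, was listed at 3429 to 10600 FPKM. The mitochondrial transcript ND6, which lies on the other strand from most mitochondrial protein genes, was listed at 32440 to 126100 FPKM and ND4 at 893 to 7786 FPKM. The summed level of a list of 20 protein synthesis genes was 184 to 355 FPKM in FH and 102 to 251 FPKM in LH, close to that of 27 olfactory, taste and keratinocyte genes that an ovary should lack (122 to 229 FPKM and 93.5 to 201 FPKM). The libraries kept the strand of the RNA, the strand setting used to count them is not given in the sources used here, and its part in these levels was not tested.

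The depth behind the values was low. Recovered from the steps of the FPKM values, the fragments counted on transcripts were 166000 to 291000 per FH library and 178000 to 298000 per LH library (exact two-sided permutation p = 0.657). Across the tested transcripts the median was 19 fragments over all 8 libraries together. FH libraries held 8280 ± 975 transcripts at 0.5 FPKM or more (SD, n = 4) and LH libraries 6708 ± 1625, with LH1 lowest at 4622 (exact permutation p = 0.143, adjusted p = 0.357 over 5 library measures). Library LH2 stood apart from its group: its median correlation with the other LH libraries was 0.645 across transcripts, against 0.677 with FH libraries. FH1, FH3 and LH4 also correlated slightly better with the other group than with their own.

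A total of 424 transcripts, 5.95% of the 7129 tested, passed the threshold of the study (limma p under 0.05 before adjustment and a log2 fold change of at least 1 in size) and are referred to as called. Of these, 354 were higher in FH (4.97% of all tested) and 70 were lower in FH (0.982%). The count is read against chance: 430 transcripts (6.03%) had an unadjusted p under 0.05, where 356 would be expected with no difference at all. Of the 1802 transcripts with a symbol, 133 (7.38%) were called. Some symbols came from the study's own list of differentially expressed transcripts, which used these libraries too. Only 1 transcript (0.014%) had an adjusted p under 0.05 (limma, Benjamini-Hochberg), and the next had 0.117. The adjusted p is given for each transcript below, so that a called transcript can have a large one. FH and LH values did not overlap at all in 289 transcripts (4.05%), 249 of them higher in FH (3.49%) and 40 lower (0.561%).

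The excess of higher calls depended on the scale of the libraries. As deposited, 83.5% of the called transcripts were higher in FH. This share was 72.5% when libraries were scaled by the median ratio, and 51.6% when they were quantile normalized. The tested transcripts had a median log2 fold change of 0.36, which was 0.17 and 0.002 under these scalings, and 182 transcripts were higher and 164 lower when called relative to that median. Without LH2 the number of called transcripts was 733, of which 617 were higher in FH and 116 lower.

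Most called transcripts were covered by few fragments. Of the 354 higher in FH, 243 had fewer than 5 recovered fragments per library on average in FH, and 54 were listed at 0 in every LH library. Of the 70 lower in FH, 40 had fewer than 5 in LH, and 6 were listed at 0 in every FH library. A transcript at 0 throughout a group passes the filter only if all 4 libraries of the other group reach 0.5 FPKM. For such transcripts, here and below, full separation of the groups is a condition of being tested and not a result. Among the 1291 transcripts with a mean of 10 or more fragments per library, 45 were called (3.49%), 31 higher and 14 lower, against 379 (6.49%) of the 5838 below it. The median standard error of the log2 fold change was 0.51 in the former and 0.91 in the latter.

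**Figure D1:**
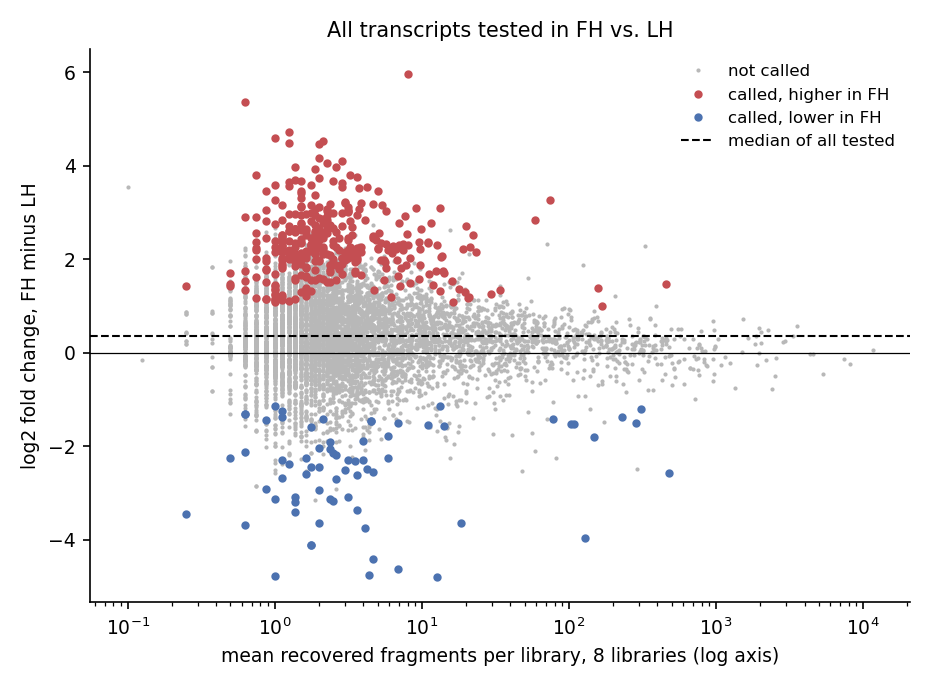
The log2 fold change (FH minus LH, on log2(FPKM + 1)) of each of the 7129 transcripts tested is plotted against its mean recovered fragments per library over the 8 libraries, on a log axis with a floor of 0.1 fragments. Red points are the 354 transcripts called higher in FH, blue points the 70 called lower, grey points the rest, and the dashed line is the median of 0.36; most red points lie below 10 fragments.

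The transcripts that led the higher side included a muscle-type calcium store protein, 3 G protein-coupled receptors, an arrestin-domain protein and a collagen cross-linking enzyme. Leaders of both sides were chosen among transcripts whose FH and LH values did not overlap, so their separation is a condition and not a result. The strongest, ENSSSCT00000007316, has no paired gene symbol. Its FH values were 28.4, 81.1, 50.7 and 119 FPKM, in the order FH1 to FH4 used throughout, and all 4 LH libraries were at 0, which is 64 recovered fragments against 0. Its adjusted p was 0.00639 in limma, ranged from 1.92e-13 to 0.133 over the 18 alternatives and was under 0.05 in 13 of them. It was 0.133 without FH2, 0.0736 without FH3 and 0.084 without FH4.

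CASQ2, calsequestrin 2, which binds calcium in the sarcoplasmic reticulum of heart muscle, was listed at 7.13, 18.8, 12.7 and 38.0 FPKM in FH and at 0 in every LH library (23 fragments against 0, adjusted p = 0.206). GPR182, an atypical chemokine receptor of endothelial cells, was measured on more fragments. Its FPKM values were 77.6, 89.4, 63.7 and 98.7 in FH and 27.1, 15.4, 23.9 and 30.1 in LH, a log2 fold change of 1.75 (SE 0.44, adjusted p = 0.315). The lowest FH value of GPR182 was more than the highest LH value by a margin wider than the spread within LH. ARRDC4, an arrestin-domain protein that responds to glucose, was listed at 31.9, 30.9, 261 and 387 FPKM in FH and at 1.42, 19.2, 18.9 and 11.5 in LH. Its log2 fold change was 3.28 (SE 0.89, adjusted p = 0.315), and FH fell into a low pair and a high pair.

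GPR34, a receptor for lysophosphatidylserine found on macrophages and microglia, was listed at 22.8, 45.5, 71.98 and 33.9 FPKM in FH and at 0, 9.76, 18.5 and 7.47 in LH (log2 fold change 2.66, SE 0.83, adjusted p = 0.443). LOXL4, a lysyl oxidase-like enzyme that cross-links collagen and elastin, was at 15.96, 29.7, 18.8 and 26.3 FPKM in FH and at 3.51, 3.09, 1.31 and 12.7 in LH (log2 fold change 2.23, SE 0.71, adjusted p = 0.464). Among the LH libraries, LH3 came closest to the FH range for GPR34 and LH4 for LOXL4. NIPSNAP3B, a member of the NIPSNAP family, was listed at 25.8, 27.3, 9.21 and 26.3 FPKM in FH and at 4.31, 0, 0 and 6.86 in LH (log2 fold change 3.08, SE 0.89, adjusted p = 0.349).

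The other leaders on the higher side were 4 named transcripts and 1 without a symbol. SBNO2, a transcriptional co-regulator, was at 15.4 to 26.6 FPKM in FH and 2.7 to 9.72 in LH, with a log2 fold change of 1.76 (SE 0.63, adjusted p = 0.652). STK24, a serine/threonine kinase of the sterile-20 family, was at 40.1 to 78.0 FPKM in FH and 14.9 to 38.0 in LH, with a log2 fold change of 1.35 (SE 0.49, adjusted p = 0.652). GPR75, a G protein-coupled receptor, was at 39.5 to 98.9 FPKM in FH and 17.3 to 35.8 in LH, with a log2 fold change of 1.30 (SE 0.48, adjusted p = 0.682), and lost its call without FH3 or without FH4. SLC35B2, which carries the sulfate donor into the Golgi, was at 9.88 to 52.3 FPKM in FH and 1.9 to 7.88 in LH, with a log2 fold change of 1.99 (SE 0.74, adjusted p = 0.682), and lost its call without FH2. The unnamed transcript ENSSSCT00000004768 was at 109, 221, 121 and 132 FPKM in FH and at 20.7, 28.1, 52.5 and 16.1 in LH (log2 fold change 2.36, SE 0.47, adjusted p = 0.146). The other 10 leading transcripts of the higher side stayed past the threshold in all 18 alternatives.

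The transcripts that led the lower side included a chromatin remodeller, an enzyme of coenzyme Q synthesis, a lysosome positioning factor, an Integrator subunit and a vascular connexin. CHD1L, a chromatin remodelling enzyme that acts in DNA repair, was listed at 13.8, 3.68, 7.31 and 3.02 FPKM in FH and at 135, 29.5, 655 and 49.6 in LH. Its log2 fold change was -3.97 (SE 0.83, adjusted p = 0.188), on 33 fragments in FH and 988 in LH. As the choice of leaders required, all LH values lay above all FH values, and LH3 was far above the other 3.

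COQ6, a monooxygenase that modifies the ring of coenzyme Q, was listed at 1.82, 0, 0 and 0 FPKM in FH and at 9.07, 15.8, 31.4 and 4.84 in LH (1 fragment against 28, adjusted p = 0.315). KXD1, a subunit of the BORC complex that positions lysosomes, was at 9.19, 8.07, 0 and 4.45 FPKM in FH and at 20.5, 32.1, 26.4 and 24.4 in LH, with a log2 fold change of -2.49 (SE 0.78, adjusted p = 0.445). INTS8, a subunit of the Integrator complex that processes and ends transcripts of RNA polymerase II, was the best covered of these. It was listed at 303, 88.7, 251 and 156 FPKM in FH and at 365, 453, 367 and 475 in LH, a log2 fold change of -1.19 (SE 0.41, adjusted p = 0.577). The LH values of INTS8 lay close together and the FH values were spread, and the call was lost without FH2 and without the variance trend.

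GJA5, connexin 40 of arterial endothelium, was listed at 3.41, 4.53, 2.01 and 3.31 FPKM in FH and at 16.9, 8.81, 18.2 and 12.1 in LH, with a log2 fold change of -1.78 (SE 0.70, adjusted p = 0.72). In the gene order of Sscrofa11.1, GJA5 and CHD1L lie on chromosome 4 with 4 genes between them. BTG3, an antiproliferative protein of the BTG/TOB family, was at 0 to 11.3 FPKM in FH and 12.6 to 54.6 in LH (log2 fold change -2.30, SE 0.86, adjusted p = 0.682). UTP18, which acts in the assembly of the small ribosomal subunit, was at 0 to 7.97 FPKM in FH and 8.68 to 22.4 in LH (log2 fold change -2.54, SE 0.92, adjusted p = 0.652). GJA5 lost its call without LH1 and without LH3, and BTG3 without LH3 and without FH4. The weakest of the group were SLC35G2, of the solute carrier 35 family, and EZR, ezrin, which ties the membrane to actin. SLC35G2 had a log2 fold change of -1.14 (SE 0.47, adjusted p = 0.764) and lost its call in 6 of 18 alternatives, and EZR had -1.88 (SE 0.85, adjusted p = 0.769) and lost it in 7.

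Of the 2 unnamed leaders of the lower side, ENSSSCT00000007338 was listed at 9.38, 6.14, 0 and 0 FPKM in FH and at 66.8, 31.2, 446 and 44.9 in LH (adjusted p = 0.146, 3 fragments against 98). ENSSSCT00000005528 was at 23.7, 0, 22.3 and 0 FPKM in FH and at 84.3, 31.6, 208 and 205 in LH (adjusted p = 0.285, 3 fragments against 34). For the former LH3 was by far the highest library, as it was for CHD1L.

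**Figure D2:**
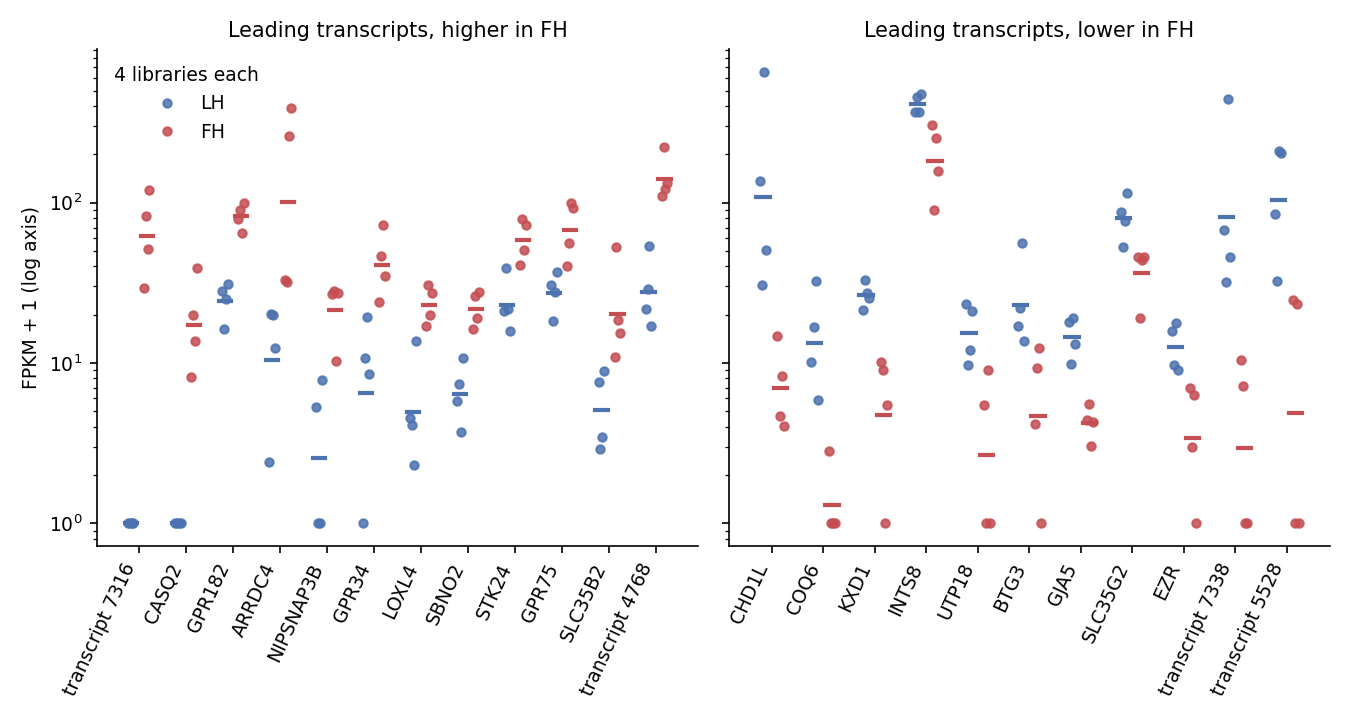
FPKM + 1 on a log axis for the 12 leading transcripts higher in FH and the 11 leading transcripts lower in FH, with 1 point per library (4 LH in blue, 4 FH in red) and a bar at the mean of log2(FPKM + 1). Leaders were chosen so that no FH point overlaps the LH points of the same transcript, and ENSSSCT00000007316 and CASQ2 sit at 0 FPKM in all LH libraries.

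The best covered calls were mostly lower in FH. Of 478 transcripts with a mean of 50 or more fragments per library, a limit chosen after the values were seen, 14 were called (2.93%), 5 higher and 9 lower. Beside INTS8, CHD1L, GSS and ARRDC4, those with a symbol were STAB1 and GFM1. STAB1, a scavenger receptor of sinusoidal endothelium and macrophages, was listed at 23.1, 19.0, 25.2 and 45.3 FPKM in FH and at 58.7, 39.7, 152 and 106 in LH (log2 fold change -1.52, SE 0.52, adjusted p = 0.567). FH4 overlapped the lowest LH library, LH2. GFM1, the mitochondrial elongation factor G1, was at 166 to 393 FPKM in FH and 53.9 to 168 in LH (log2 fold change 1.01, SE 0.45, adjusted p = 0.769) and lost its call in 10 of 18 alternatives.

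LH2 decided part of these values. In 7 of the 9 well covered transcripts lower in FH, LH2 was the lowest LH library, and in 6 of the 9 it was at or below the highest FH library. The unnamed ENSSSCT00000004476 was listed at 253, 48.3, 216 and 97.4 FPKM in FH and at 1502, 62.5, 2275 and 1568 in LH1 to LH4. Its log2 fold change was -2.58 (adjusted p = 0.623) with all libraries and -3.78 (adjusted p = 0.0143) without LH2. In that fit 4 transcripts had an adjusted p under 0.05. LH2 was singled out after the values were seen, and leaving out the LH library nearest to FH must widen the difference. No conclusion on the phases is drawn from that p.

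The tested genes of steroid production did not pass the threshold in either direction. None of 8 tested cholesterol genes and none of 4 tested steroid synthesis genes was called, with median log2 fold changes of 0.07 and 0.02 against 0.36 over all transcripts. With 7.38% of all transcripts with a symbol called, a count of 0 in lists this small is near the background. CYP21A2, 21-hydroxylase, the most abundant of the steroid list, was at 173, 105, 148 and 65.1 FPKM in FH and at 60.9, 54.7, 113 and 100 in LH (log2 fold change 0.55, 95% interval -0.40 to 1.499, adjusted p = 0.817). STARD3, a cholesterol transporter of late endosomes, had a log2 fold change of -0.51 (95% interval -1.73 to 0.71).

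TIMP1, a metalloproteinase inhibitor that luteal cells secrete in large amounts, was the only called member of the luteal marker list, of which 2 were tested. Over all transcripts with a symbol the called share was 7.38%. TIMP1 was listed at 10.8, 0, 0 and 0 FPKM in FH and at 50.6, 0, 30.7 and 46.2 in LH (2 fragments against 18, adjusted p = 0.748). LH2 was again at the level of FH, and 7 of 18 alternatives took the call away. PTGFR, the prostaglandin F receptor through which the corpus luteum regresses, was at 0 to 8.22 FPKM in FH and 1.2 to 3.29 in LH (log2 fold change -0.07, 95% interval -2.08 to 1.93). In low fecundity PTGFR was at 0 in every FL library and at 14.6, 23.1, 5.74 and 13.4 FPKM in LL (adjusted p = 0.0124). None of 4 tested granulosa markers was called, with a list median of 1.04 and 3 of 4 above the median of all transcripts. This list is too small to read that as a shift. LHX9, a LIM homeobox factor of the gonad, was at 12.2, 6.42, 0 and 24.8 FPKM in FH and at 0, 9.31, 0 and 3.23 in LH (log2 fold change 1.46, 95% interval -1.04 to 3.97). GATA4, a transcription factor of granulosa cells, was at 11.4, 7.53, 6.74 and 0 FPKM in FH and at 0, 10.9, 2.34 and 0 in LH (log2 fold change 1.09, 95% interval -1.30 to 3.48). The oocyte marker WEE2, a kinase that keeps the oocyte arrested, was at 0 to 5.09 FPKM in FH and 4.73 to 16.6 in LH (log2 fold change -1.63, 95% interval -3.52 to 0.26, adjusted p = 0.769). GDF9, a growth factor of the oocyte and the other tested oocyte marker, was at 0 to 15.1 FPKM in FH and 0 to 12.9 in LH (log2 fold change 0.48, 95% interval -2.09 to 3.05).

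Of 23 tested extracellular matrix genes, 2 were called higher in FH, LOXL4 and HAPLN3, and TIMP1 was called lower, with a list median of -0.06. Of all transcripts with a symbol 7.38% were called in either direction, and the counts of these lists were not tested against that share. HAPLN3, which links hyaluronan to proteoglycans, was at 6.26, 7.13, 3.16 and 7.8 FPKM in FH and at 0, 6.58, 0 and 0 in LH (adjusted p = 0.769), and 9 of 18 alternatives took its call away. Among 13 tested vessel genes RGS5, a regulator of G protein signalling in pericytes, was called higher. It was listed at 5.71, 22.7, 6.75 and 8.29 FPKM in FH and at 0, 0, 4.68 and 0 in LH (17 fragments against 2, log2 fold change 2.74, SE 0.95, adjusted p = 0.577), and it kept its call in all 18 alternatives. EGFL7, an endothelial gene, and ANGPTL1, an angiopoietin-like protein, were far more abundant, and neither was called. EGFL7 was at 103 to 933 FPKM in FH and 47.6 to 892 in LH (log2 fold change -0.12, 95% interval -1.85 to 1.61), and its log2 fold change was -1.03 without LH2 (adjusted p = 0.569). ANGPTL1 was at 219, 211, 302 and 395 FPKM in FH and at 91.8, 359, 209 and 96.0 in LH, with a log2 fold change of 0.76. Without LH2 it became 1.14 and passed the threshold (adjusted p = 0.373), the only 1 of 18 alternatives in which ANGPTL1 was called.

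Signalling genes gave single calls. Among transcripts with a symbol, 7.38% were called in either direction, so 0 or 1 call in lists this small is near the background. SSTR3, a somatostatin receptor, was the only called member among 10 tested receptors and was listed at 6.69, 8.81, 5.99 and 4.86 FPKM in FH and at 0 in every LH library (6 fragments against 0, adjusted p = 0.315). In the Wnt and Hippo list of 12 tested genes, FZD5, a Wnt receptor, was called higher and DKK1, a secreted Wnt inhibitor, was called lower. FZD5 was at 4.68, 7.76, 8.28 and 6.81 FPKM in FH and at 0, 0, 1.44 and 0 in LH (17 fragments against 1, log2 fold change 2.63, SE 0.81, adjusted p = 0.431), and kept its call in all 18 alternatives. DKK1 was at 0, 4.52, 0 and 0 FPKM in FH and at 5.77, 19.6, 4.24 and 4.57 in LH (1 fragment against 9, adjusted p = 0.729) and lost its call in 5 of 18. None of 8 TGF-beta family genes, 10 insulin and IGF genes, 15 cell cycle genes and 9 immediate early genes was called. CDC20, which activates the anaphase-promoting complex, was at 74.0 to 151 FPKM in FH and at 264, 45.6, 246 and 229 in LH, with a log2 fold change of -0.66. Without LH2 it became -1.26 and passed the threshold (adjusted p = 0.294), the only 1 of 18 alternatives in which CDC20 was called. BMP6, the most abundant linked gene of the TGF-beta family list, was at 1293 to 2145 FPKM in FH and 950 to 2077 in LH (log2 fold change 0.18, 95% interval -0.57 to 0.93). DUSP4, a phosphatase that switches off MAP kinases, was at 5.85 to 12.7 FPKM in FH and 1.1 to 5.21 in LH (log2 fold change 1.53, 95% interval -0.16 to 3.21, adjusted p = 0.769), with no overlap between the groups.

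Redox genes were called in both directions. Of 7 tested, COQ10A, a coenzyme Q binding protein of mitochondria, was called higher, and COQ6 and GSS were called lower. In either direction, 5.95% of all transcripts and 7.38% of those with a symbol were called. GSS, glutathione synthetase, was listed at 145, 112, 118 and 132 FPKM in FH and at 743, 90.9, 746 and 331 in LH. Its log2 fold change was -1.504 (SE 0.57, adjusted p = 0.683), on 496 fragments in FH and 1795 in LH. FH values lay within a narrow range, 3 LH libraries lay far above it and LH2 below it, and the log2 fold change without LH2 was -2.16 (adjusted p = 0.0679). The call of GSS was lost in 3 of 18 alternatives, without the variance trend, without LH1 and without LH3. COQ10A was at 20.7, 23.4, 0 and 60.2 FPKM in FH and at 0, 0, 0 and 7.86 in LH (27 fragments against 2, adjusted p = 0.769), and lost its call in 7 of 18 alternatives. In low fecundity COQ10A went the other way, with 0, 34.5, 26.8 and 15.7 FPKM in FL and 56.5, 20, 64.2 and 69.6 in LL (log2 fold change -2.10, not called).

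In the protein synthesis list, 3 of 12 tested genes were called higher and none lower, with a list median of 0.89 against 0.36 over all transcripts. Over all transcripts tested 4.97% were called higher, and of those with a symbol 7.38% were called in either direction. The 3 were MRPL36, of the large mitochondrial ribosomal subunit, RPL3, of the large cytoplasmic subunit, and EIF4EBP3, which binds the cap-binding factor eIF4E and holds back translation. MRPL36 was listed at 4.94, 21.8, 2.92 and 11.96 FPKM in FH and at 0 in every LH library (19 fragments against 0, adjusted p = 0.315). It kept its call in all 18 alternatives, which refit the same libraries. At 0 in LH, MRPL36 passed the filter only because every FH library reached it. RPL3 was at 5.67 to 9.51 FPKM in FH and at 0, 0, 7.82 and 0 in LH (8 fragments against 2, adjusted p = 0.738, lost in 6 of 18). EIF4EBP3 was at 28.6 to 151 FPKM in FH and 0 to 35.6 in LH (30 fragments against 10, adjusted p = 0.769, lost in 9). RPL13, another ribosomal protein, had a log2 fold change of 0.01 (95% interval -1.39 to 1.42). NDUFA1, a subunit of respiratory complex I, was the only called gene of 6 tested in mitochondrial respiration, at 36.1, 28.1, 26.4 and 52.5 FPKM in FH and 0, 6.63, 8.96 and 38.3 in LH. It rested on 15 fragments against 6 (adjusted p = 0.721) and lost its call in 4 of 18 alternatives. ND4, a complex I subunit encoded in the mitochondrial genome, had a log2 fold change of -0.47. Without LH2 it became -1.05 and passed the threshold (adjusted p = 0.405), the only 1 of 18 alternatives in which ND4 was called.

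SMPD1, acid sphingomyelinase, was the only called gene of 9 tested in the lysosome list, at 4.33, 11.4, 15.4 and 9.44 FPKM in FH and 3.6, 0, 2.66 and 0 in LH. It rested on 13 fragments against 2 (log2 fold change 2.35, SE 0.92, adjusted p = 0.715) and lost its call in 4 of 18 alternatives. TLR10, a toll-like receptor of B cells, was the only called gene of 9 tested immune markers, and 6 of these 9 lay above the median of all transcripts. By definition, as many transcripts lie above that median as below it. With 7.38% of transcripts with a symbol called, 1 call in a list of 9 is near the background. TLR10 was listed at 19.7, 29.5, 46.4 and 38.1 FPKM in FH and at 6.5, 17.7, 8.05 and 22.6 in LH (log2 fold change 1.32, SE 0.58, adjusted p = 0.769), and 10 of 18 alternatives took the call away. The summed level of the immune list was 150 to 342 FPKM in FH and 132 to 222 in LH, with CD53, CD5, CD72 and SPP1 at 0 in all 8 libraries. CD68, of macrophage lysosomes, was at 23.0 to 73.3 FPKM in FH and 16.9 to 24.9 in LH (log2 fold change 0.78, 95% interval -0.35 to 1.90). None of 11 tested genes of the olfactory, taste and keratinocyte list was called, with a median of -0.05.

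**Figure D3:**
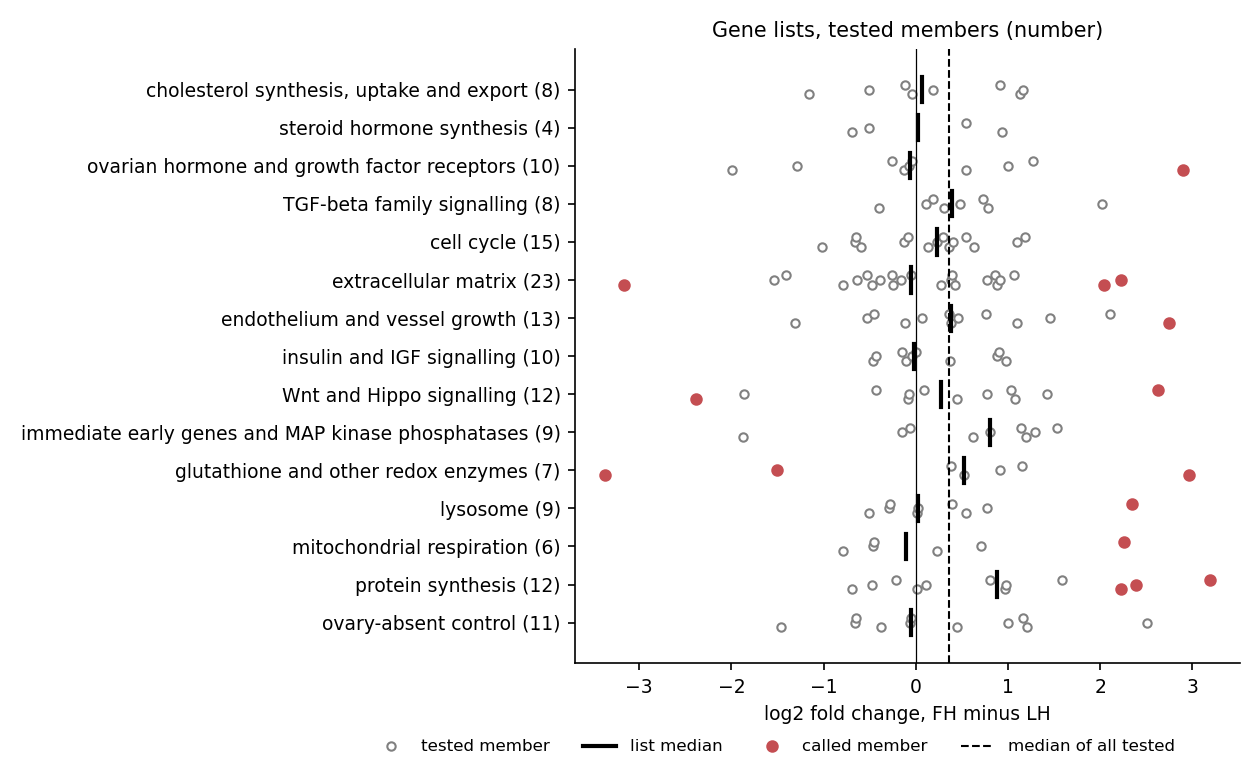
Each point is the log2 fold change (FH minus LH, on log2(FPKM + 1)) of 1 tested gene of 15 gene lists, with the number tested in brackets, red where the gene was called and with a black bar at the list median. The dashed line marks the median of all transcripts tested, 0.36, and the protein synthesis list has the highest median of these 15 lists, 0.89.

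The phase difference was then read in sows with low fecundity, which share no animal with FH and LH. Of 5087 transcripts tested in both comparisons, 25.4% were called in FL vs. LL, 22.0% higher and 3.4% lower in FL. Of the 238 transcripts called higher in FH and tested there, 192 (80.7%) were also higher in FL, against 77.3% of all, and 66 (27.7%) were called higher. Of the 54 called lower in FH and tested there, 30 (55.6%) were also lower in FL, against 22.7% of all, and 16 (29.6%) were called lower, against the 3.4% of all. In the opposite direction, 4 of the former and 5 of the latter were called. Across the 5087 transcripts, Pearson's r between both log2 fold changes was 0.24, a description over transcripts that share libraries and depth.

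**Figure D4:**
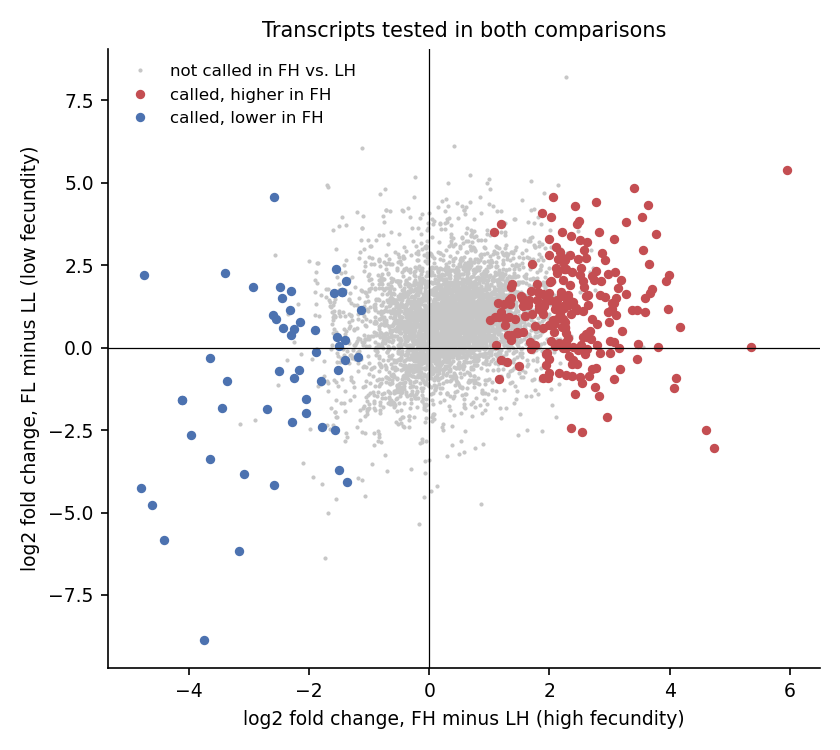
The log2 fold change between phases in high fecundity (FH minus LH, horizontal) is plotted against that in low fecundity (FL minus LL, vertical) for 5087 transcripts tested in both. Of the red points, called higher in FH, 192 of 238 lie above 0 on the vertical axis, and of the blue points, called lower in FH, 30 of 54 lie below 0.

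GSS, TIMP1, CHD1L and GJA5 were called lower in the follicular phase in both fecundity groups. GSS was listed at 118, 85.6, 108 and 81.4 FPKM in FL and at 1224, 1621, 1181 and 1118 in LL. TIMP1 was listed at 0 throughout FL, while LL held 50.9, 109, 69.7 and 63.5 FPKM. For both genes every LL library lay above every FL library, and no LL library resembled LH2. CHD1L was at 1.98, 44.3, 9.52 and 2.77 FPKM in FL and at 43.5, 44.4, 67.2 and 57.4 in LL (log2 fold change -2.64, adjusted p = 0.0527), and GJA5 at 0 to 9.75 FPKM in FL and 7.03 to 35.9 in LL (log2 fold change -2.41, adjusted p = 0.112).

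On the higher side, ENSSSCT00000007316 was listed at 35.8, 24.4, 77.9 and 41.8 FPKM in FL and at 0 in every LL library (adjusted p = 0.00137), so that it was at 0 in all 8 luteal libraries and at 24.4 FPKM or more in all 8 follicular ones. CACNG1, a calcium channel subunit of skeletal muscle, was at 15.3, 10.1, 20.6 and 5.56 FPKM in FH and at 0 in every LH library (10 fragments against 0, adjusted p = 0.245), and at 5.07 to 10.8 FPKM in FL and 5.62, 0, 0 and 0 in LL (adjusted p = 0.0828). SLC8B1, the mitochondrial sodium and calcium exchanger, was at 4.04, 5.36, 4.77 and 1.96 FPKM in FH and at 0 in every LH library (9 fragments against 0, adjusted p = 0.315), and at 5.13 to 22.8 FPKM in FL and 0 to 7.73 in LL (adjusted p = 0.134). DISP2, of the Dispatched family that releases Hedgehog proteins, and HCFC1, a cofactor of transcription, were called higher in both as well. DISP2 did not exceed 11.5 FPKM in any library and lost its FH vs. LH call in 4 of 18 alternatives, and HCFC1 did not exceed 4.21 FPKM and lost it in 5. Among the other leaders of the higher side, STK24 and ENSSSCT00000004768 were also called higher in FL. The rest were not, with log2 fold changes of 1.63 for ARRDC4, 0.67 for SBNO2, 0.17 for NIPSNAP3B and 0.09 for GPR182. They were -0.02 for LOXL4, -0.33 for SLC35B2, -0.44 for GPR75, -0.86 for GPR34 and -0.91 for CASQ2. CASQ2, at 0 in every LH library, was at 10.5, 6.85, 14.7 and 7.41 FPKM in LL.

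**Figure D5:**
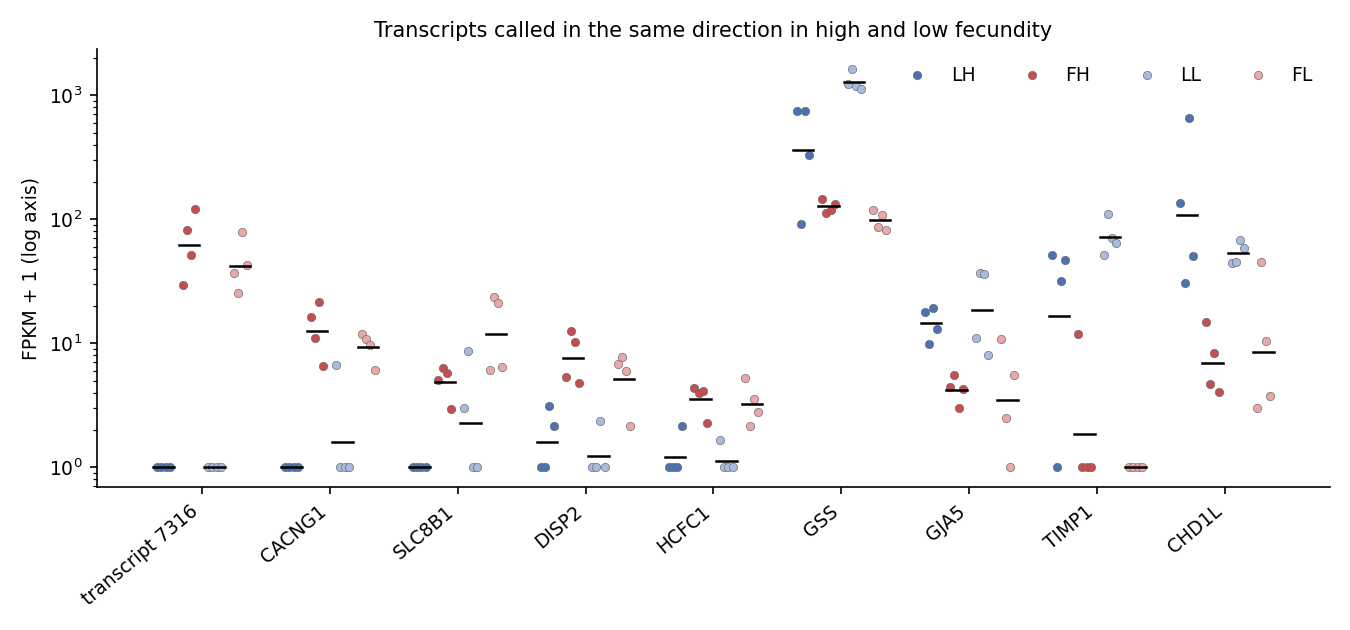
FPKM + 1 on a log axis for ENSSSCT00000007316 and 8 named transcripts called in the same direction in FH vs. LH and FL vs. LL, with 1 point per library, 4 libraries per group and a bar at the mean of log2(FPKM + 1). GSS and TIMP1 stand high in LL and in 3 of 4 LH libraries, with LH2 at 90.9 and 0 FPKM.

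A test of the difference between both phase comparisons found no transcript with an adjusted p under 0.05 (limma interaction on 16 libraries, 0.0%, 523 with an unadjusted p under 0.05). It covered the 7129 transcripts filtered on FH and LH alone, so transcripts seen only in FL or LL could not enter. Past the study's threshold were 520 transcripts (7.29%). In 150 the difference of FH from LH was the more positive of the 2, and in 370 it was the more negative. The median log2 fold change was 0.83 in FL vs. LL (transcripts tested in both) and 0.36 in FH vs. LH (all tested). With unlike medians the typical difference tends to be negative already, and the part of this in the counts was not tested. SSTR3 had an adjusted interaction p of 0.0836. It was listed at 0 in all FL and LL libraries, so that FH was the only group above 0. At 0 in LH, SSTR3 could enter the test only with every FH library past the filter. Its presence throughout FH was thus a condition of entry and not a result. FTL had the same adjusted p and was at 4.93 to 32.2 FPKM in FH, 4.61 to 16.7 in LH, 7.68 to 64.9 in LL and 0 in every FL library. STEAP4, a metalloreductase, was at 8.81 to 15.0 FPKM in FH and 6.41 to 13.8 in LH but at 17.3 to 37.7 in FL and 0 to 2.58 in LL, with an adjusted interaction p of 0.146. IFN-DELTA-7, of the interferon delta family, whose near-identical copies may share reads, was at 19.3 to 134 FPKM in FH and 53.0 to 167 in LH and at 80.5 to 391 in FL and 0 to 47.2 in LL, with an adjusted interaction p of 0.102. KXD1, lower in FH than in LH, was at 8.13 to 31.2 FPKM in FL and 0 to 9.5 in LL, with an adjusted interaction p of 0.313.

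The most abundant named transcripts did not pass the threshold in either direction. KL, the alpha-Klotho co-receptor of fibroblast growth factor 23, was listed at 7286, 8187, 5470 and 6497 FPKM in FH and at 5845, 11350, 7081 and 6435 in LH (log2 fold change -0.13, 95% interval -0.88 to 0.62). ITPKC, an inositol trisphosphate kinase, was at 6051 to 9876 FPKM in FH and 7673 to 14360 in LH, with LH2 highest (log2 fold change -0.23, 95% interval -0.998 to 0.53). GYS1 had a log2 fold change of 0.06 (95% interval -0.78 to 0.91) and POLR2B, a core subunit of RNA polymerase II, of 0.31 (95% interval -0.37 to 0.997). ND6 was at 104500, 44970, 74960 and 47160 FPKM in FH and at 116800, 32440, 126100 and 122600 in LH. It had a log2 fold change of -0.45 (95% interval -1.56 to 0.65), and LH2 was the lowest of all 8 libraries. Without LH2 the log2 fold change of ND6 was -0.93 (adjusted p = 0.315). For CAND2, FEZ2 and BMP6 the 95% intervals also held 0.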

How the data were processed

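Ovarian RNA was depleted of ribosomal RNA and made into strand-specific paired-end libraries. The study's methods name RSEM and the Sscrofa10.2 assembly of Ensembl release 86, while the submitters' processing notes list HISAT2 2.0.1, StringTie 1.0.4 and DESeq2 1.6.3. The authors deposited 1 table of FPKM per transcript, and because each library is scaled to its own total, very abundant transcripts push the remaining values down. Depth was estimated from the steps of the FPKM values (92.7% to 94.7% of low values in the libraries lay within 0.05 of whole fragments), and these are estimates in which PCR copies are not independent molecules.

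FH vs. LH was fitted on log2(FPKM + 1) of 8 libraries by limma 3.58.1 (R 4.3.3, variance trend, two-sided), and p-values were adjusted over 7129 transcripts by Benjamini-Hochberg. FL vs. LL was fitted on its own 8 libraries and the interaction on 16. Since 1 was added to each FPKM, fold changes of low transcripts are understated, and none is given against a group at 0. Library measures were compared by exact permutation in scipy 1.17.1. Tables and figures were made in Python 3.11.15 (pandas 2.3.3, matplotlib 3.10.9, numpy 2.4.6).

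Symbols came from the study's tables that pair transcripts with genes, used for names only, and from a gene name table (3847 of 27370 transcripts, 83 of them by the latter), so that a gene may have transcripts not linked here. Named were transcripts with an adjusted p under 0.05, the 10 per direction with a symbol and the smallest p (9 met the conditions on the lower side) and 2 per direction without, all called, not overlapping and with a mean of 5 fragments or more in the group that was higher, plus the called and the 2 most abundant tested members of each list, the 8 most abundant, up to 5 per direction called in both phase comparisons and 2 per direction of the interaction. List genes stand for their linked transcript with the highest mean. Members and lists were chosen with earlier results of these data known. Alternatives were another pseudocount, filter, scaling, variance model, sample set, library weights, replicate block, voom on recovered fragments and each library left out. Replicate numbers did not pair the samples. Other RNA classes were not analysed here. Values of some items that met the naming rule are not reported here.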

Additional observations from a re-analysis of the deposited data

Results flagged for a closer look

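In groups of 4 libraries, a library was singled out where its gap to the nearest other library passed Dixon's 95% limit as a share of the group's range. Of 178 groups examined over the named transcripts and library measures, 23 (12.9%) held such a library. The limit assumes normally distributed values, which FPKM values on few fragments are not, so the share to be expected by chance is not known here. LH2 was singled out 6 times, LH3 5 times, FH2 4 times and FH4 never. In 10 of the 23 the other 3 libraries were at 0, a pattern that passes the limit at any value above 0.

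In LH2, ND6 was at 32440 FPKM (others 116800 to 126100), ITPKC at 14360 (others 7673 to 8525), CDC20, an activator of the anaphase complex, at 45.6 (others 229 to 264), IL7R, the interleukin 7 receptor, at 93.5 (others 28.1 to 33.2), DKK1 at 19.6 (others 4.24 to 5.77) and HAPLN3 at 6.58 (others 0). In LH3, CHD1L was at 655 FPKM (others 29.5 to 135) and ENSSSCT00000007338 at 446 (others 31.2 to 66.8). LH3 also held the only values above 0 in LH for RGS5 (4.68), FZD5 (1.44) and RPL3 (7.82). In LH4, CKS2, a subunit of cyclin-dependent kinases, was at 85.8 FPKM (others 15.6 to 23.8), and HCFC1 (1.17) and COQ10A (7.86) were above 0 in no other LH library. In LH1, FTL was at 16.7 FPKM (others 4.61 to 6.54).

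In FH2, COQ5, a methyltransferase of coenzyme Q synthesis, was at 86.6 FPKM (others 2.34 to 13.6), RGS5 at 22.7 (others 5.71 to 8.29), SLC35G2 at 18.1 (others 43.1 to 45.0) and DKK1 at 4.52 (others 0). In FH1, COQ6 was at 1.82 FPKM, TIMP1 at 10.8 and PAQR5, a membrane progesterone receptor, at 4.66, each with the other FH libraries at 0. In FH3, NIPSNAP3B was at 9.21 FPKM (others 25.8 to 27.3).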

How the results depend on the processing

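The number of called transcripts stayed within 1.5 times of 424 in all alternatives except the one without LH2, and leaving out 1 library gave 355 to 733. In the fit with the replicate block 455 transcripts were called and 0 had an adjusted p under 0.05, and deviations of same-numbered libraries were not correlated (r from -0.044 to 0.084). Transcripts with an adjusted p under 0.05 numbered 0 with a pseudocount of 0.1, 13 with all 16 libraries in the fit, 14 without the variance trend and 38 with voom on recovered fragments, and 0 to 4 without 1 library. The share of called transcripts higher in FH was 72.5% with median-ratio factors, 51.6% with quantile normalization, and 71.4% to 88.6% without 1 library. The median log2 fold change was 0.002 after quantile normalization and 0.22 to 0.50 without 1 library. The cause of these shifts was not tested.

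Of the 424 called transcripts, 139 (32.8%) were past the threshold in the same direction in all 18 alternatives, 118 higher and 21 lower, 40 of them with a symbol. Of 42 named called transcripts, 22 kept the call in every alternative and 20 lost it in at least 1, with no change of direction. For the interaction, 520 called transcripts became 859 with no filter, 2 transcripts had an adjusted p under 0.05 with a pseudocount of 0.1, and 0 to 5 without 1 library. The difference in fragments between FH and LH ranged from -38330 to 7417 without 1 library and changed sign without LH2 (7417) or FH3 (3333). Depth limits most of the table: the median standard error was 0.91 on the log2 scale for transcripts under 10 fragments per library.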

Other observations

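RUNX2, a transcription factor induced in granulosa cells around ovulation, fell outside the rule for naming because of its depth and was picked after its values were seen. FH libraries held 34.2, 42.8, 66.2 and 74.7 FPKM, and LH libraries 0, 14.6, 0 and 0 (9 fragments against 1, adjusted p = 0.146 in limma), and it was called in all 18 alternatives. In low fecundity the direction was the opposite, with 0, 0, 35.65 and 108.5 FPKM in FL and 49.1, 106, 110 and 30.1 in LL (log2 fold change -3.04).

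Further well covered calls without a symbol were also chosen after their values were seen. ENSSSCT00000005907, a transcript of 5825 nt, was listed at 610, 536, 349 and 547 FPKM in FH and at 109, 335, 147 and 191 in LH (log2 fold change 1.47, adjusted p = 0.315) and was called in all 18 alternatives. ENSSSCT00000009951 was at 447, 1400, 1504 and 935 FPKM in FH and at 296, 256, 444 and 558 in LH (log2 fold change 1.38, adjusted p = 0.44), and it was called higher in FL vs. LL too (log2 fold change 1.92). ENSSSCT00000015385 was at 64.2, 43.9, 43.9 and 57.6 FPKM in FH and at 162, 206, 126 and 88.6 in LH (log2 fold change -1.41, adjusted p = 0.36), where LH2 was the highest LH library.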
